A study of Mus musculus with 6 samples.

Results

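MAP kinases carry signals from antigen and cytokine receptors of T cells to the nucleus, and cells make their own brakes on this pathway. The brakes described here are 10 genes, Dusp1, Dusp2, Dusp4, Dusp5, Dusp6 and Dusp10 of the MAP kinase phosphatases and Spry1, Spry2, Spred1 and Spred2 of the Sprouty and Spred proteins, chosen as members by name and measured with every probe annotated to their symbols. Of the 10 genes 9 had a probe in the annotation used here, with 18 probes in all among the 45281 of the array, and no probe was annotated to Spry1. Above background on at least 2 arrays were 14 probes of 7 genes, among 9593 genes that passed this filter.

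By the source label and the methods the cells were pTreg cells, the regulatory T cells that form outside the thymus out of naive CD4+ cells, sorted as CD4+ Foxp3-GFP+ and recovered from RAG1-deficient mice some weeks after sorted naive cells of both genotypes had been injected together, whereas the description labels call them iTreg, a name the study otherwise gives to cells made in culture, and this difference was not resolved here. Ctrl cells were Prdm1+/+ CD4-Cre+ and carried Thy1.1, and CKO cells were Prdm1 flox/flox CD4-Cre+ on C57BL/6, without Blimp1, and carried Thy1.2, so the Thy1 allotype and the deletion cannot be told apart. Donors were young adult Foxp3-GFP reporter mice whose lymph nodes and spleens were pooled, CD4-Cre deletes in all T cells of the donor and not in Treg cells alone, and the hosts have no mature T or B cells of their own. There were 3 Ctrl and 3 CKO arrays, each pair of one replicate number sharing a slide, and P+I stands in the labels of replicates 2 and 3 but not of replicate 1.

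Dual-specificity phosphatases of the DUSP family remove phosphate from both the threonine and the tyrosine of an active MAP kinase. Dusp1, Dusp2, Dusp4 and Dusp5 encode nuclear enzymes that are made rapidly after stimulation, Dusp5 and Dusp6 act mainly on ERK, with Dusp6 in the cytoplasm, and Dusp10 acts mainly on p38 and JNK. Sprouty and Spred proteins act further upstream, at the step from receptors to Ras and Raf. Many of these genes are themselves switched on by ERK, so their transcripts are often read as a trace of recent signalling.

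Promoter windows are shown for Dusp1, Dusp2 and Dusp5, the members whose value differed between genotypes in the same direction in all 3 pairs. Each runs from 250 bases before the annotated start to 50 after it, 5′ to 3′ along the gene, from RefSeq on GRCm38.p6. Capitals mark TGACG on either strand, which is the core of the cyclic AMP response element (CRE), the full element TGACGTCA that contains it, and the CArG box, the serum response factor site found in genes that ERK switches on early.

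Dusp1, chr17:26508423-26508722, minus strand: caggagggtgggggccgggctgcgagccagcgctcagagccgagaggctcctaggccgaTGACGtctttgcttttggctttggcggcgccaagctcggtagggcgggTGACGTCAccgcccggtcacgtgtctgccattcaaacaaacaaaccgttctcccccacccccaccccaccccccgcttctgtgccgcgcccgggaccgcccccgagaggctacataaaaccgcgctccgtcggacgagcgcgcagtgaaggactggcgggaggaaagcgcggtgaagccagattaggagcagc
Dusp2, chr2:127335909-127336208, plus strand: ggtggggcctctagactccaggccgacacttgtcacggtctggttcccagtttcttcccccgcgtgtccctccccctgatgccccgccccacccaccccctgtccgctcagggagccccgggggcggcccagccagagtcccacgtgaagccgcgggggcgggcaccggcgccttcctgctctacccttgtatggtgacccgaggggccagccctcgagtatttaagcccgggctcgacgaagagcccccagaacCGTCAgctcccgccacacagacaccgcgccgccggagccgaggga
Dusp5, chr19:53528895-53529194, plus strand: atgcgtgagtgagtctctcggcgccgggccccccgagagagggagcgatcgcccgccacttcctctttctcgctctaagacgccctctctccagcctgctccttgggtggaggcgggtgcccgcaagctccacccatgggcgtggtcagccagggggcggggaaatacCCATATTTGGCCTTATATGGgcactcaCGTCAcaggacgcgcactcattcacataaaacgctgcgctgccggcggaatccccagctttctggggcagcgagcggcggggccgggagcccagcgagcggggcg

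The full TGACGTCA was found in the Dusp1 window alone of the 9 members that had one (Dusp4 had none in the table used here), where it began at position -143 from the start, and it is present in 1.79% of all 32851 windows. A further TGACG began at position -191 of Dusp1. The Dusp5 window held adjoining CArG boxes that began at positions -82 and -72, and a CArG box is present in 1.63% of all windows. TGACG was found on either strand in 4 of the 9 member windows and in 20.8% of all windows. GAAAG, the core of sites that Blimp1 is known to bind, not capitalised above, was found in 6 of 9 member windows and in 57.3% of all windows, so its presence sets no member apart. A match of letters is a description of the window and no measure of binding.

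Prdm1, which encodes Blimp1, read 18.9, 50.9 and 49.2 on Ctrl arrays 1, 2 and 3 and 561, 341 and 704 on the CKO arrays, higher where the gene is floxed, and its probe has not been placed relative to the deleted part, so it checks nothing about the deletion. The paper also lists Prdm1 among genes higher without Blimp1 in both pTreg and effector T cells, and cites earlier work on its direct repression by Blimp1. The 6 Treg markers and the 5 T cell markers with a probe were above background on all 6 arrays, and both sums were lower in CKO without overlap. The Treg markers summed to between 10803 and 15126 on Ctrl arrays and between 5772 and 7198 on CKO arrays, and the T cell markers to between 9906 and 13274 and between 7726 and 9469. Such sums are weighted to their brightest genes. Foxp3 did not follow the Treg sum, with 480, 212 and 141 on the Ctrl arrays and 433, 165 and 216 on the CKO arrays. Among all single genes, the groups did not overlap for 13.0%. Of 6 myeloid markers with a probe 4 were above background on all 6 arrays and Itgam on none, and their summed intensity lay between 2439 and 31483 in Ctrl and between 1653 and 22051 in CKO, lowest in replicate 2 of both groups. Cd8a was not above background on any array, but Cd8b1 was on all 6, and these 2 CD8 markers summed to between 662 and 1040 in Ctrl and between 552 and 943 in CKO. Epcam and Krt19 were not above background on any array, while Krt8 and Krt18 were on some. The erythroid markers Hba-a1 and Alas2 summed to between 539 and 1899 in Ctrl and between 566 and 1638 in CKO. The 2 B cell markers with a probe had summed values of at most 21.5. Il2, made on stimulation, ranged from 6980 to 13107, replicate 1 included, which read 9308 in its Ctrl cells and 8597 in its CKO cells. The part of the Treg and T cell markers, of the myeloid, erythroid and CD8 transcripts and of stimulation in the values below was not tested. Only 3 arrays a group bound how small a difference could be seen.

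No brake changed between Blimp1-sufficient and Blimp1-deficient pTreg cells at an adjusted p under 0.05 from limma, nor did any of the 14 probes. This is 0 of 7 genes against 0.271% of all 9593 genes, and 0 of 14 probes against 0.149% of 14811 named probes. At an unadjusted p under 0.05 there were also 0 of 7, against 8.06% of all genes, and none met the thresholds that the study used, a 1.5-fold difference together with an unadjusted p under 0.05, as 7.42% of all genes did. Without Ctrl replicate 3, Dusp1 met these thresholds, at -1.01 on the log2 scale (unadjusted p = 0.025 and adjusted p = 0.55 from limma). The share of all genes that met them in that fit was not counted, so this call has no background beside it. The values of the groups overlapped for all 7 genes, while they did not overlap for 13.0% of all genes. The median log2 fold change of the 7 genes, CKO minus Ctrl, was 0.017, and that of all genes was 0.018. The median size of the change, without its sign, was 0.27 on the log2 scale for the brakes and 0.23 for all genes. With numbers this small the shares describe the brakes and do not set them apart from other genes.

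**Figure D1:**
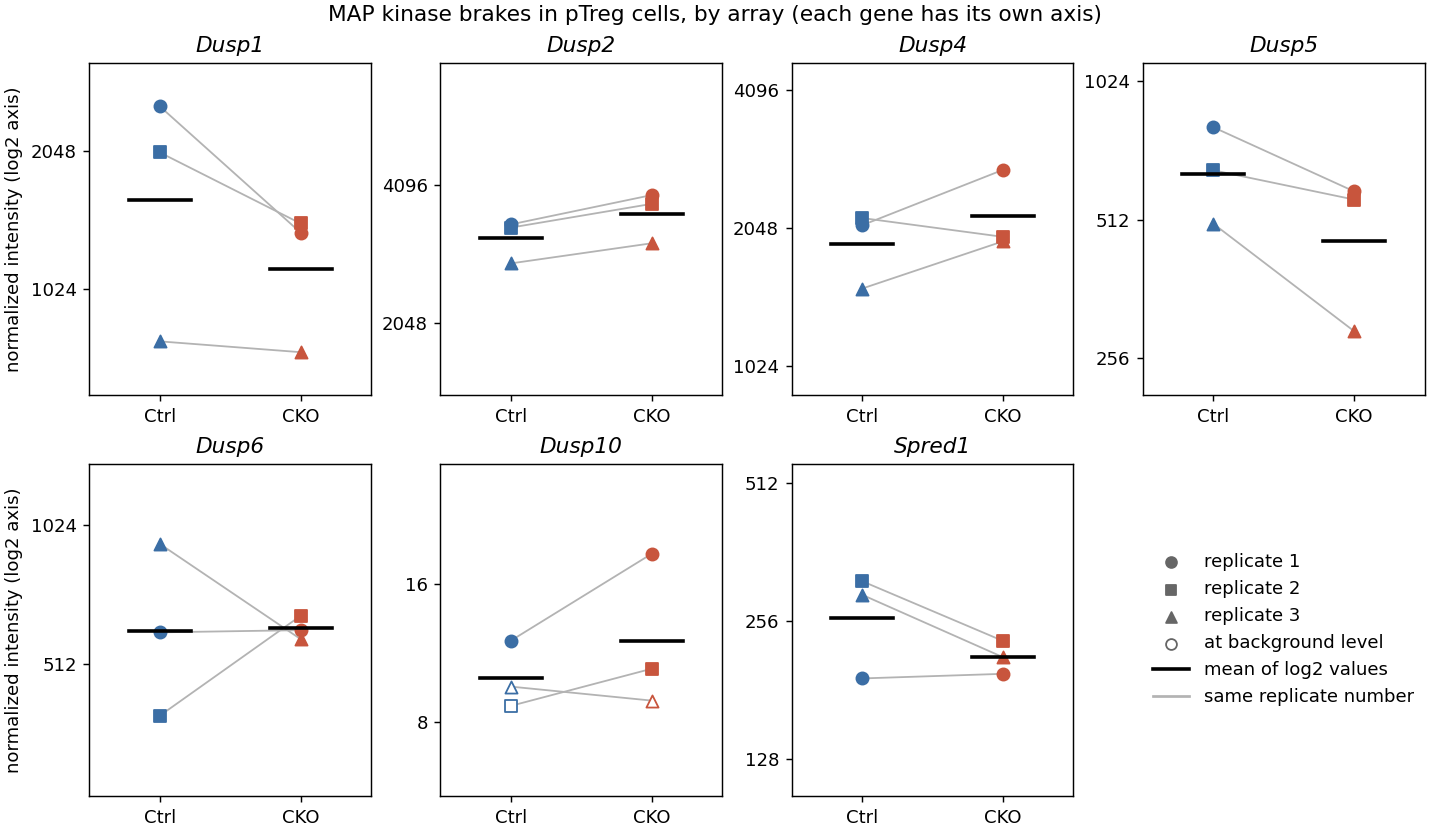
Normalized intensity on a log2 axis for the 7 brakes above background, one panel per gene with its own axis, in Ctrl and CKO pTreg cells. Each symbol is one array, grey lines join arrays of one replicate number, black bars are means of log2 values and open symbols are values at the array's background level. The groups overlap in every panel, and Dusp1 and Dusp5 are lowest in replicate 3.

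Among the nuclear phosphatases, Dusp1, which acts on p38, JNK and ERK, read 2564, 2035 and 789 on Ctrl arrays 1, 2 and 3 and 1361, 1425 and 747 on CKO arrays 1, 2 and 3, as normalized intensity. CKO was the lower array of each pair, but Ctrl replicate 3 lay below CKO replicates 1 and 2, so the groups overlapped. The log2 fold changes per pair were -0.91, -0.51 and -0.08, so the difference was near 0 in the pair with the lowest values. The mean difference was -0.50 (standard error 0.47), with a 95% interval from -1.59 to 0.59 on the log2 scale (adjusted p = 0.91 from limma). In bulk RNA, fewer cells with a transcript and less RNA per cell cannot be told apart, for this and all other members.

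Dusp5, the inducible nuclear phosphatase of ERK, followed nearly the same order over the 6 arrays. Its intensities were 814, 656 and 502 in Ctrl replicates 1, 2 and 3 and 590, 566 and 293 in CKO. Both arrays of replicate 3 were the lowest of the 6, as for Dusp1, and CKO was again the lower array of each pair. The log2 fold changes of the pairs were -0.46, -0.21 and -0.78, and their mean was -0.48 (standard error 0.34, adjusted p = 0.85 from limma). The 95% interval of the fold of CKO over Ctrl ran from 0.416 to 1.23.

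For Dusp1 and Dusp5 the replicates differed more than the genotypes did. The pair means of Dusp1 differed by up to 2.43-fold and those of Dusp5 by up to 1.81-fold, while Ctrl was 1.42-fold above CKO for Dusp1 and 1.40-fold for Dusp5. With the replicate number as a block, which removes this spread, the standard errors fell from 0.47 to 0.22 for Dusp1 and from 0.34 to 0.20 for Dusp5. The unadjusted p-values in limma were then 0.058 and 0.046, and the adjusted p-values 0.33 and 0.30. In that fit 0 of the 7 brakes and 1.91% of all genes passed an adjusted p of 0.05, and Dusp5 was the 1 brake of 7 with an unadjusted p under 0.05, which 1536 of all 9593 genes (16%) had there.

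Dusp2, a nuclear phosphatase that marks activated lymphocytes, varied little. Its brighter probe gave 3359, 3305 and 2762 in Ctrl replicates 1, 2 and 3 and 3891, 3723 and 3056 in CKO. CKO was the higher array of each pair, replicate 3 was again lowest in both groups, and the 6 arrays spanned 1.41-fold. The mean log2 fold change was 0.18 (standard error 0.22, adjusted p = 0.94 from limma), and the fold interval ran from 0.793 to 1.61. The second Dusp2 probe, ILMN_1242406, differed by 0.28, 0.56 and -0.16 on the log2 scale from pair to pair and so did not keep the direction in replicate 3.

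In all, 3 of the 7 brakes had one direction in all 3 pairs, Dusp1 and Dusp5 lower and Dusp2 higher in CKO, a pattern that 34.1% of all genes showed. A pair with both arrays at background was counted as having no direction.

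Dusp4, the nuclear phosphatase of ERK and JNK, was read by 4 probes, all above background on the 6 arrays. The brightest gave 2077, 2154 and 1512 in Ctrl replicates 1, 2 and 3 and 2742, 1960 and 1917 in CKO. The highest array was CKO replicate 1, and both arrays of replicate 3 were the lowest, as for Dusp1, Dusp2 and Dusp5. The mean log2 fold change was 0.20 (standard error 0.26, adjusted p = 0.94 from limma), and the fold interval ran from 0.761 to 1.74. The other 3 probes had mean log2 fold changes of 0.07 for ILMN_2608995, -0.25 for ILMN_2689731 and -0.30 for ILMN_2870965. The 4 probes of Dusp4 thus split between both signs, and each of their 95% intervals held 0.

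Dusp6, the cytoplasmic phosphatase of ERK, showed opposite differences in different pairs. Its brightest probe gave 599, 394 and 933 in Ctrl replicates 1, 2 and 3 and 605, 650 and 579 in CKO. The Ctrl arrays held both the highest and the lowest of the 6 values, and the CKO arrays lay close together, with a mean of 612 ± 36.1 (SD, n = 3), where Ctrl had 642 ± 272 (SD, n = 3). The 3 pairs differed by 0.02, 0.72 and -0.69 on the log2 scale, and their mean was 0.02 (standard error 0.33, adjusted p = 0.996 from limma, fold interval from 0.601 to 1.70). Replicate 3, the lowest for Dusp1, Dusp2, Dusp4 and Dusp5, held the highest Dusp6 value, on its Ctrl array.

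A second Dusp6 probe above background on all 6 arrays, ILMN_1248537, had intensities of 30.7, 39.2 and 82.9 in Ctrl and 35.7, 25.6 and 26.5 in CKO. Its Ctrl replicate 3 stood above the other 5 arrays, as on the brightest probe, while in replicate 2 its CKO array was the lower, the opposite of the brightest probe. The mean log2 fold change was -0.68 (standard error 0.38, adjusted p = 0.78 from limma), the widest difference among the 14 probes. The third probe, ILMN_2701321, was above background on 2 Ctrl arrays and on no CKO array, with values of 7.9, 4.3 and 10.8 in Ctrl and 4.8, 2.8 and 4.6 in CKO, so its fold rests mostly on values raised to background.

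**Figure D2:**
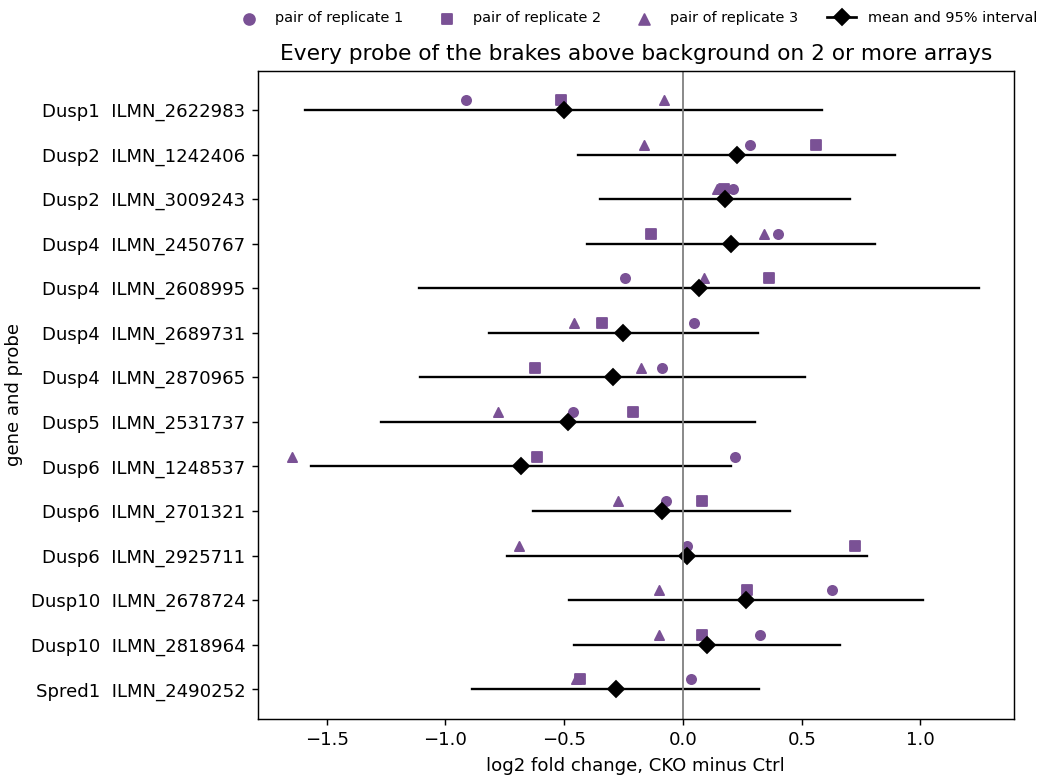
Log2 fold change, CKO minus Ctrl, for the 14 probes above background on at least 2 arrays. Diamonds and lines are the mean and its 95% interval from limma, small symbols are the pairs of one replicate number, and values below background were raised to it. A pair with both arrays raised shows only the ratio of their background levels, and it enters the mean. Every interval holds 0, and the probes of Dusp4 and of Dusp6 lie on both sides of it.

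Dusp10, the phosphatase of p38 and JNK, was near background. Its brighter probe gave 12.02, 6.1 and 3.1 in Ctrl replicates 1, 2 and 3 and 18.6, 10.4 and 6.2 in CKO, of which Ctrl replicates 2 and 3 and CKO replicate 3 were not above background. CKO was the higher array in the pairs of replicates 1 and 2, and that of replicate 3 has no order. With dim values raised to background the mean log2 fold change was 0.27 (standard error 0.32, adjusted p = 0.94 from limma), and without CKO replicate 1 it was -0.050. Background levels differed between arrays, so the pair of replicate 3 entered this mean at -0.10, which is only the ratio of its background levels. The second Dusp10 probe was above background in replicate 1 alone, at 10.2 in Ctrl and 12.8 in CKO, and its other pairs, at 0.08 and -0.10, are likewise only ratios of background levels.

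Of the upstream brakes, which act between receptors and Raf, only Spred1 was measured above background. It gave 192, 312 and 292 in Ctrl replicates 1, 2 and 3 and 196, 232 and 213 in CKO. Replicates 2 and 3 were lower in CKO and replicate 1 was not, with log2 fold changes of 0.03, -0.43 and -0.45. The mean was -0.28 (standard error 0.26, adjusted p = 0.91 from limma), and the fold interval ran from 0.544 to 1.24. Both arrays of replicate 1, which carries no P+I in its label and lies on its own slide, were the lowest of the 6 for Spred1 and were not so for any other of the 7 brakes. Slide, label and replicate cannot be told apart here.

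Spry2, an inhibitor of Ras activation, had 1 probe, with values of at most 2.0 on the 6 arrays, and the 3 probes of Spred2, a relative of Spred1, reached at most 6.1. None of these 4 probes was above background on any array, at background levels of 6.18 to 9.55, so they give no comparison. A probe that is not above background does not show that its gene is silent.

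**Figure D3:**
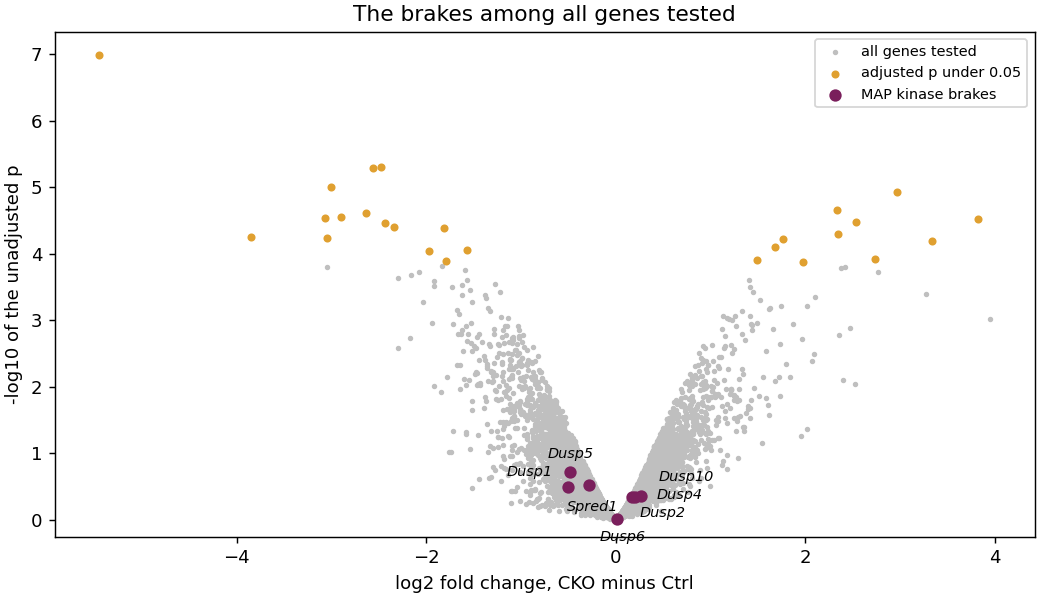
Log2 fold change, CKO minus Ctrl, against -log10 of the unadjusted p from limma for all 9593 genes, with the 26 genes at an adjusted p under 0.05 and the 7 brakes in colour. The brakes lie near the foot of the plot, between -0.50 and 0.27 on the horizontal axis.

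The rest of the pathway was followed with 11 lists that hold 122 genes, of which 90 were tested. None of the 90 passed an adjusted p of 0.05 from limma, 7 had an unadjusted p under 0.05, and the same 7 met the study's thresholds, which is 7.78% beside 8.06% of all genes at the unadjusted p alone and 7.42% at the study's thresholds. With the replicate block 2 of the 90 passed, or 2.22% beside 1.91% of all genes.

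Other phosphatases gave no call. Of the MAP kinase phosphatases outside the member list, 3 of 4 were tested, with a median log2 fold change of -0.32, and Dusp16, which acts on JNK and p38, had means of 122 ± 29.2 for Ctrl and 97.8 ± 22.5 for CKO (SD over 3 arrays). Of the atypical dual-specificity phosphatases 8 of 14 were tested, with a median of 0.05. Dusp11, which acts on RNA, had means of 1422 ± 193 for Ctrl and 1132 ± 145 for CKO (SD over 3 arrays), and its adjusted p was 0.85 from limma. The 3 tyrosine phosphatases of MAP kinases were tested, among them Ptpn7 of lymphocytes, which read 16.9, 9.97 and 14.9 on the Ctrl arrays and 12.5, 31.5 and 19.4 on the CKO arrays. Of the other Sprouty and Spred genes only Spred3 was tested, above background on 1 array of each group, and Spry3 and Spry4 did not pass the filter.

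Genes at the level of Ras held 3 of the 7 that met the study's thresholds. Of 7 GTPase-activating proteins tested, 1 was higher and 1 lower in CKO at these thresholds. Of 9 genes of Ras and its activators 1 was lower, beside 7.42% of all genes in either direction. With lists this small the counts do not set Ras apart. Nf1, a GTPase-activating protein that switches Ras off, read 10.01, 9.84 and 11.7 on Ctrl arrays 1, 2 and 3 and 25.8, 18.9 and 17.3 on the CKO arrays. The groups did not overlap, though the Ctrl values lie near background, and they differed by 0.96 on the log2 scale (SE 0.24, limma adjusted p = 0.23, or 0.085 in the fit with replicate blocks). Rasal3, a Ras GTPase-activating protein of T cells, went the other way, with 828, 856 and 933 in Ctrl and 545, 556 and 431 in CKO, a difference of -0.78 on the log2 scale (SE 0.22, limma adjusted p = 0.29). Rasgrp1 loads Ras with GTP below the T cell receptor. Its brightest probe had 2180, 2052 and 1690 in Ctrl and 1499, 1120 and 967 in CKO, at an adjusted p of 0.42 from limma. A dim Rasgrp1 probe that passed the filter, ILMN_1214318, had a mean log2 fold change of 0.28, with -0.50, -0.21 and 1.55 in the pairs. Only replicate 3 was higher in CKO on that probe, and its Ctrl value there, 9.47, was not above background. The median over 7 GTPase-activating proteins was 0.03 and that over 9 genes of Ras and its activators was -0.13.

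The kinases themselves gave no call. Of the ERK cascade 8 of 16 genes were tested, with a median log2 fold change of -0.01, and of the p38 and JNK cascades 17 of 21, with a median of -0.18. No gene of either list met the study's thresholds. Mapkapk2, a kinase below p38, had means of 4053 ± 195 for Ctrl and 2970 ± 880 for CKO (SD over 3 arrays), at an adjusted p of 0.75 from limma.

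Among 16 early genes that ERK is known to induce, none met the study's thresholds, and their median log2 fold change was -0.18. Egr1, a zinc finger factor induced within minutes, had 4775, 4642 and 3526 in Ctrl replicates 1, 2 and 3 and 3074, 3650 and 1908 in CKO, lower in CKO in each pair, with an adjusted p of 0.68 from limma. Jun, a subunit of AP-1, had 93.0, 128 and 86.9 in Ctrl and 75.0, 76.7 and 39.9 in CKO, at an adjusted p of 0.63. Of the 4 early genes of smallest p, Myc and Etv4 had the opposite sign. Myc, a growth factor-induced regulator of growth, read 79.1, 119 and 61.2 on the Ctrl arrays and 134, 128 and 111 on the CKO arrays, higher in CKO in each pair (limma adjusted p = 0.71). Etv4, an ETS factor, read 17.04, 28.8 and 25.7 on the Ctrl arrays and 28.5, 27.4 and 63.9 on the CKO arrays (limma adjusted p = 0.77). In Egr1 and Jun, as in Dusp1 and Dusp5, CKO replicate 3 was the lowest of the 6 arrays. The median intensity of the 16 genes was 240 on the Ctrl array and 242 on the CKO array of replicate 3, and between 344 and 384 elsewhere, so replicate 3 was lowest for this list in both genotypes.

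Of the listed transcription factors with an ETS domain, 6 of 7 were tested and Fli1 met the study's thresholds. Fli1, a factor of blood cell development, had 17.4, 26.3 and 34.6 in Ctrl replicates 1, 2 and 3 and 11.004, 3.2 and 12.9 in CKO, with 2 of 3 CKO arrays above background and an adjusted p of 0.23 from limma. Of 13 genes of stimulated T cells 3 met the thresholds, beside 7.42% of all genes, and these 3 were chemokines. A list of 13 genes is too small for this count to set it apart. Xcl1 had 4246, 3729 and 7316 in Ctrl and 19562, 10913 and 17263 in CKO (limma adjusted p = 0.15, or 0.027 with replicate blocks). Ccl3 had 15841, 4566 and 17633 in Ctrl and 5133, 2727 and 5396 in CKO (limma adjusted p = 0.53, or 0.049 with replicate blocks). Ccl4 was lower in CKO on both of its probes, by -0.82 and -1.65 on the log2 scale. Myeloid cells also express Ccl3 and Ccl4, and the summed myeloid markers were lower on the CKO array of each pair. That sum is mostly S100a8 and S100a9, both lower in CKO in each pair. Other markers did not all follow it. In replicate 2, Lyz2 read 29.1 in Ctrl and 60.3 in CKO, and Cd14 read 21.8 and 43.0. In replicate 3, Csf1r read 13.8 in Ctrl and 20.7 in CKO. The part of myeloid transcripts in these 2 chemokines was not tested.

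**Figure D4:**
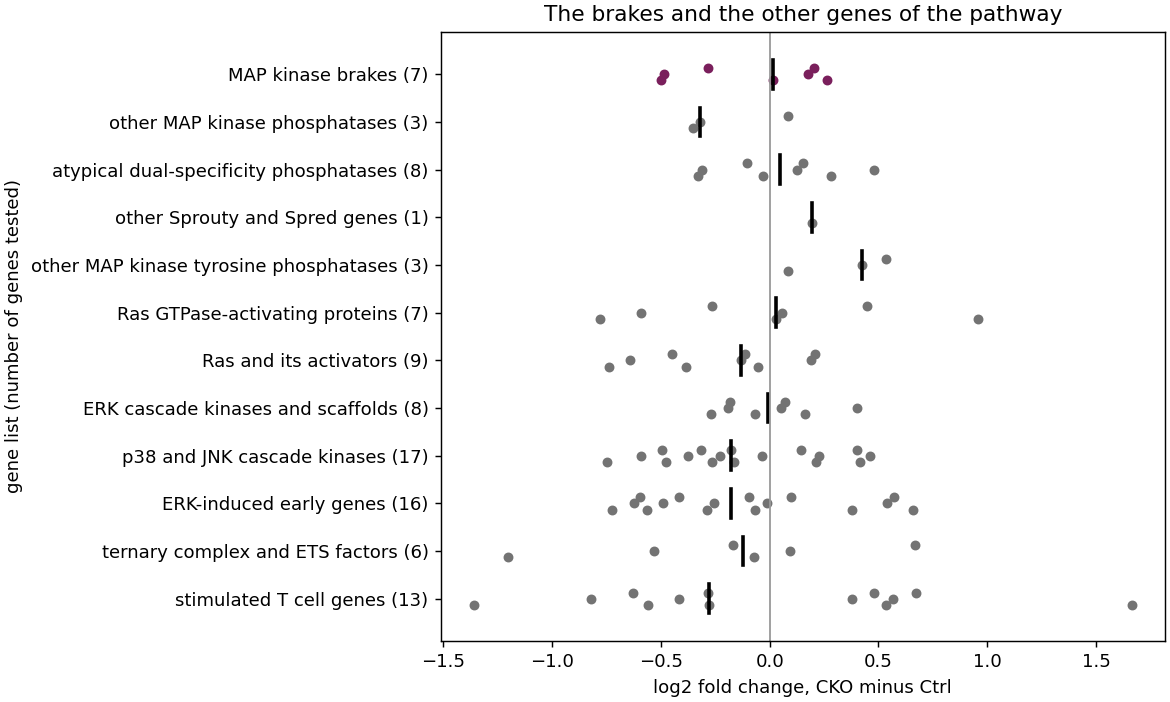
Log2 fold change, CKO minus Ctrl, of the 7 brakes and of the genes tested in 11 lists of the pathway and of stimulated T cells. Points are genes, black bars are medians, and the numbers in brackets are genes tested per list. The median of the brakes lies at 0.017, and the genes beyond 1 in size are Fli1, Ccl3 and Xcl1.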

How the data were processed

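Total RNA of sorted pTreg cells was hybridised to Illumina MouseWG 6v2 bead arrays. The deposited table holds linear intensity values that came from Genome Studio and had been quantile normalized by the authors, slide by slide as the columns show, and 35.4% to 36.0% of them per array are below 0. Detection p-values were not used here. All 6 columns were put on 1 quantile scale. An array's background level was taken at percentile 95 of its 1504 probes for odorant and vomeronasal receptors, which gave 6.18 to 9.55. Values under that level were set to it before log2. Probes above it on at least 2 arrays were kept, 17294 in all and 14811 with 1 gene symbol, and 34807 probes had their symbol from RefSeq by gene identifier. Each gene was read by its brightest probe. Groups came from the genotype labels. limma 3.58.1 (R 4.3.3) was run with no block, since the study's methods name limma and mention none. The Benjamini-Hochberg adjustment covered 9593 genes, or 14811 probes. The steps were tested on simulated data.

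Both arrays of replicate 2 share a date in the labels, as do those of replicate 3, and those of replicate 1 a slide. Same-numbered arrays deviated together (r = 0.51, 0.49 and 0.56 over genes). Arrays of different numbers were not compared in this way, and replicates 2 and 3 share a slide. These values therefore cannot tell pairing by number from a slide effect. The replicate block takes its pairs from the labels and is given beside the main fit. The methods call the samples biological replicates. The members and lists were chosen with earlier results of these data known. Named genes are all members, Prdm1, Foxp3 and Il2 as checks, and up to 4 genes of smallest p per list. Foxp3 read 278 ± 178 on Ctrl arrays and 271 ± 142 on CKO arrays (SD, n = 3). The alternatives were another background level, an offset of 16, no filter, the deposited scale, the mean of a gene's probes, either block, and left-out arrays or pairs.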

Additional observations from a re-analysis of the deposited data

How the results depend on the processing

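Under the 16 alternatives no brake passed an adjusted p of 0.05 from limma by gene, nor under 15 of them by probe, the mean over probes having no probe-level fit and the higher background level dropping ILMN_2701321. The lowest adjusted p was 0.30, for Dusp5 with the replicate block. At the study's thresholds Dusp1 passed without Ctrl replicate 3. Probe ILMN_1248537 of Dusp6 passed with no filter, without Ctrl replicate 1 and without replicate 1, at unadjusted p from 0.026 to 0.045 from limma. The shares of all genes or probes that met these thresholds in those fits were not counted, so these calls cannot be set against a background. Dusp1, Dusp2, Dusp5 and Spred1 kept their sign in every alternative. Leaving out arrays moved Dusp1 between -1.01 and -0.16 on the log2 scale, the first without Ctrl replicate 3 and the second without Ctrl replicate 1, and Dusp5 between -0.67 and -0.16, the latter without CKO replicate 3. With the mean of all kept probes Dusp4 was at -0.069 and Dusp6 at -0.25. Without 1 array or pair, Dusp6 lay between -0.34 and 0.37, with -0.29 without Ctrl replicate 2 and -0.03 without CKO replicate 2, and Dusp10 between -0.050 and 0.48, the former without CKO replicate 1. By probe these ranges were -0.34 to 0.54 for ILMN_2608995 of Dusp4, -0.19 to 0.038 for ILMN_2701321 of Dusp6 and -0.068 to 0.20 for ILMN_2818964 of Dusp10. Over all genes, 26 passed the adjusted p, against 43 with the offset of 16, 150 without a filter, 183 with the replicate block, 16 with the slide block, and 0 to 14 without 1 array or pair. The cause was not tested, except that fewer arrays give less power. Leaving out an array therefore cannot show that the absence of calls is stable.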
